A study of Mus musculus with 10 samples.

Results

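Loss of PKCz in hearts that received only the solvent PBS was examined on 5 of the 10 arrays in the study. These were the arrays titled KO PBS 2, KO PBS 3 and KO PBS 4, from mice with the genotype PKCZ -/- (KO), and WT PBS 3 and WT PBS 5, from wild-type mice (WT). They were chosen by their titles alone, and every probe set that is not an Affymetrix control was used, 45037 of 45101. All animals were male mice of the SV129 strain at 32 weeks of age, described as littermates. Both groups were infused with PBS for 14 days per the design text, although the source label calls these mice non-treated. The other 5 arrays came from mice of the same genotypes given angiotensin II (AngII), a peptide that constricts vessels and leads to enlargement of the heart, at 432 µg per kg per day. They are 3 WT and 2 KO arrays, and they enter here through the shared estimate of the spread and for the genotype difference under AngII, set beside that under PBS. How the allele was made, and whether any array pooled hearts, is not stated in the labels. Nothing in the labels says that the arrays of a group are separate animals, so p-values describe only how far these samples vary, and that variation may be technical.

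PKCz is an atypical protein kinase C: it is not activated by calcium or diacylglycerol but by lipids of the phosphoinositide pathway and by scaffold proteins such as Par6 and p62. The study's title places it between the G protein Gq, which carries the signal of the angiotensin receptor, and ERK5, a MAP kinase whose targets include transcription factors of the immediate early class. Immediate early genes are transcribed within minutes of a growth factor, stretch or stress signal, without new protein synthesis, and their transcripts decay as quickly. Many of their products, among them Dusp phosphatases, Sprouty proteins, Errfi1 and Zfp36, switch the same signals off again.

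Values are log2 RMA expression levels, so that a difference of 1 is a 2-fold difference. Differences are KO minus WT under PBS ± SE from limma, array values are given in the order WT PBS 3, WT PBS 5, then KO PBS 2, KO PBS 3, KO PBS 4, and a probe set is called where limma's p-value, adjusted over all 45037 probe sets, is under 0.05. The 5 arrays had medians of 6.12 to 6.22, and pairs of them correlated with r from 0.9815 to 0.9917. KO PBS 4 differed from the others in its control transcripts: the polyadenylated bacterial RNAs added before labelling averaged 7.08 on it, against 12.86 to 13.24 on the other 4 arrays. The called differences and the medians of the gene lists are therefore given with and without it, and for most single genes its level is printed on its own. Both KO AngII arrays had the same low signal, at 6.90 and 7.01, against 13.06 to 13.33 on the 3 WT AngII arrays. Genotype and this signal cannot be told apart under AngII, which touches every AngII difference and every interaction given here. The 18S ribosomal RNA signal was 9.16 and 8.07 on the WT arrays and 8.01, 7.88 and 7.20 on the KO arrays, so that it too ran from WT to KO. Beta-actin's 3' signal exceeded its 5' signal, a gap that widens where labelling or RNA is cut short, by 1.17, 1.70, 1.38, 1.28 and 0.75. Between the WT arrays 253 probe sets differed by at least 1 log2, between KO PBS 2 and KO PBS 3 there were 102, and KO PBS 4 differed from these by 475 and 376. Across genotypes, KO PBS 3 differed from WT PBS 3 and WT PBS 5 at 168 and 165 probe sets, fewer than the WT arrays from each other. The counts against the same WT arrays were 245 and 329 for KO PBS 2, and 442 and 938 for KO PBS 4.

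The first question was what the arrays show of the targeted gene. On its brightest probe set Prkcz read 6.29 and 6.38 on the WT arrays and 5.70, 5.76 and 5.85 on the KO arrays. All 3 KO arrays lay below both WT arrays, by 0.56 ± 0.13 at the mean (limma's adjusted p = 0.437), and by 0.60 without KO PBS 4. An exact two-sided permutation test of the 10 arrangements gave p = 0.2, the smallest that 3 arrays against 2 allow. The other 2 Prkcz probe sets differed by 0.09 ± 0.13 and −0.01 ± 0.12, and their groups overlapped. The labels do not say which part of the gene was deleted, and a probe set outside that part checks nothing. Around Prkcz on chromosome 4, 31 of the 50 genes within 25 places were measured; 0 of them had an unadjusted p under 0.05, and they ranged from −0.32 to 0.40 around a median of 0.0.

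Only 6 of 45037 probe sets were called between KO and WT hearts under PBS, which is 0.0133% of those tested; 5 were lower in KO (0.0111%) and 1 was higher (0.00222%). An unadjusted p under 0.05 was reached by 2835 (6.29%), and by 2200 (4.88%) without KO PBS 4. The calls comprised a family of zinc-finger genes on chromosome 2, the kinetochore gene Cenpf and the signalling inhibitor Spry4. The same 6 were called without KO PBS 4.

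Zinc-finger transcripts made up 4 of the 6 calls. Zfp931, a gene of the C2H2 zinc-finger class, read 8.11 and 8.0 on the WT arrays and 5.74, 6.48 and 6.36 on the KO arrays. It fell by 1.86 ± 0.20, or 3.64-fold (limma's adjusted p = 0.0080), and by 1.95 without KO PBS 4. Its only probe set is annotated to 1 gene. However, its identifier ends in _x_at, like that of the last probe set described below, which is annotated to 7 genes. Whether its probes also match related genes was not tested, so the fall may not be that of Zfp931 alone. A further 3 probe sets match several genes each, 18 genes in all, every one on chromosome 2 like Zfp931, and none of them can be assigned to 1 gene. The probe set annotated to Zfp965, Zfp966, Zfp967, Zfp971, Zfp973 and 2 predicted genes read 8.57 and 8.32 in WT and 4.82, 5.25 and 5.06 in KO. It fell by 3.40 ± 0.19, or 10.6-fold (adjusted p = 2.03e-05). The probe set matching 8 predicted genes read 7.51 and 7.70 in WT and 4.68, 4.86 and 4.43 in KO. It fell by 2.95 ± 0.16, or 7.75-fold (adjusted p = 2.03e-05). On the last of them, which shares genes with the one before, levels were 8.31 and 8.24 against 5.48, 5.95 and 5.75, where the probe set fell by 2.55 ± 0.17, or 5.87-fold (adjusted p = 1.07e-04). Without KO PBS 4 the differences of these 3 were −3.41, −2.84 and −2.57. On each of the 4 probe sets the lowest WT array stood more than 1 log2 above the highest KO array. The same differences under AngII were −1.87 for Zfp931 and −3.14, −2.70 and −2.39 for the others, with the low control signal on both KO arrays there. Of the 50 genes within 25 places of Zfp931, 11 were measured with a probe set of their own; 0 of these had an unadjusted p under 0.05, and they lay between −0.31 and 0.16.

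Cenpf, which encodes a large kinetochore and nuclear matrix protein made in dividing cells, was the only called probe set that was higher in KO. It read 6.37 and 6.62 on the WT arrays and 8.34, 8.86 and 9.10 on the KO arrays. It rose by 2.27 ± 0.23, or 4.83-fold (limma's adjusted p = 0.0062), and by 2.10 without KO PBS 4. Its other 2 probe sets, at levels of 4.57 to 5.53, differed by 0.18 ± 0.13 and 0.17 ± 0.11. Under AngII the difference on the called probe set was 1.28 ± 0.23; the change between treatments had an unadjusted p of 0.0108 in limma's interaction test and an adjusted p of 1. Other genes of the cell cycle list differed by less. Of its 25 measured genes 18 lay above 0 with a median of 0.11 (0.05 without KO PBS 4). At an unadjusted p under 0.05, 2 were higher, Cenpf among them, and 1 lower, where 2.31% and 3.44% of all genes were. Kif20a, a kinesin of late mitosis, read 4.03 and 4.08 against 4.56, 4.47 and 4.60, near the bottom of the scale (0.49 ± 0.11, adjusted p = 0.393). The proliferation markers Mki67 and Top2a differed by 0.16 ± 0.14 and 0.19 ± 0.17, and their groups overlapped. Cenpa, the centromeric histone, lay on the other side, at 9.20 and 9.05 in WT and 8.38, 8.89 and 8.40 in KO (−0.57 ± 0.19, adjusted p = 0.701).

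Spry4 encodes a Sprouty protein, an inhibitor of signalling from receptor tyrosine kinases to ERK that is itself induced by that signal. On the called probe set it read 6.30 and 6.37 in WT and 4.89, 5.20 and 4.78 in KO. It fell by 1.38 ± 0.15, or 2.60-fold (limma's adjusted p = 0.0080), and by 1.29 without KO PBS 4. The brightest Spry4 probe set had levels of 7.83 and 8.09 against 7.33, 7.28 and 7.29, likewise without overlap (−0.66 ± 0.15, adjusted p = 0.415). The other 2 were apart the other way, with KO higher by 0.35 ± 0.15 and 0.22 ± 0.12. In WT they averaged 5.40 and 4.98, below the called one at 6.33. In KO they averaged 5.75 and 5.19, above the called one at 4.96. Under AngII the called probe set differed by −0.09 ± 0.15, with means of 5.02 in WT and 4.93 in KO. The change of the genotype difference with treatment was −1.29 ± 0.21, with an unadjusted p of 5.54e-05 and an adjusted p of 1 in limma's interaction test. That test called 0 of 45037 probe sets (0%); 737 had an unadjusted p under 0.05 (1.64%). It called 2 without KO AngII 3, 1 without KO AngII 4 and 1 without WT PBS 5.

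**Figure D1:**
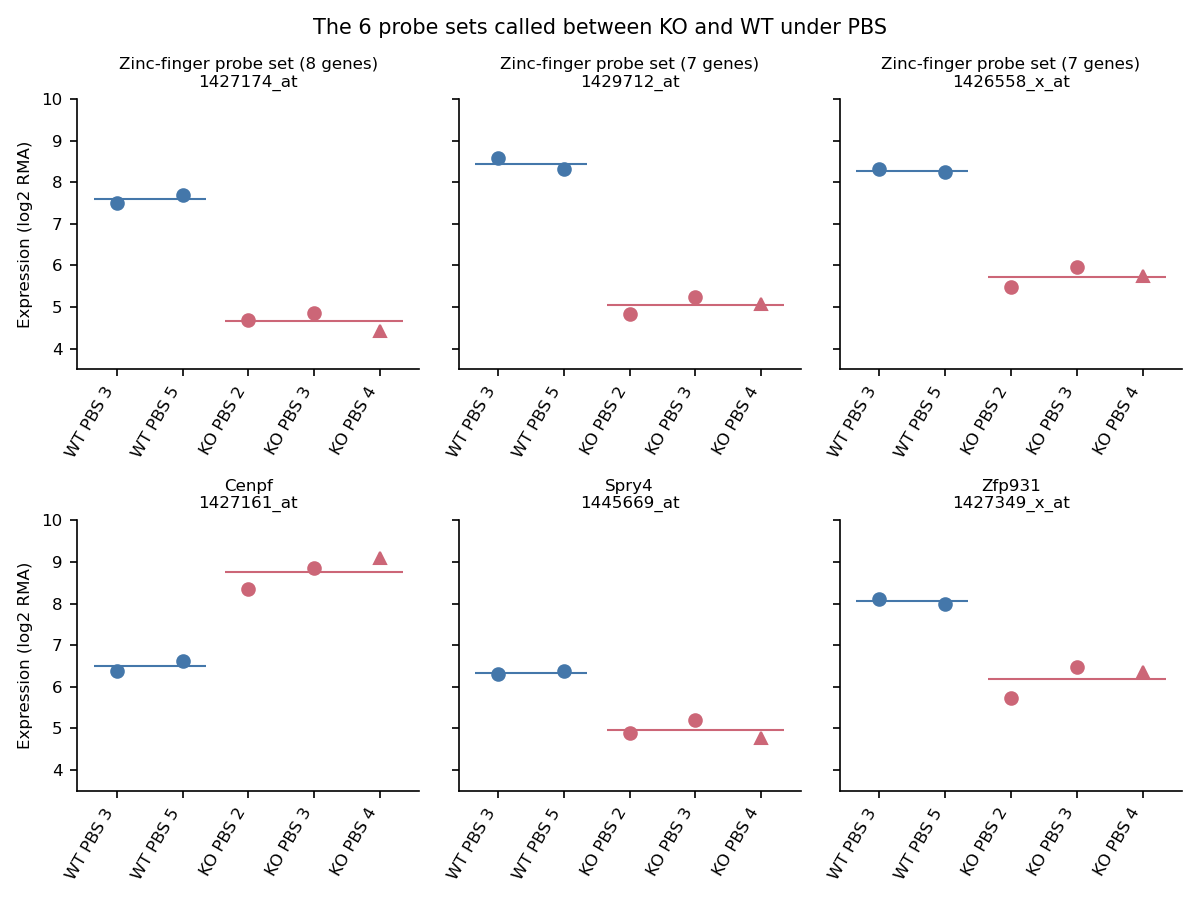
Each panel plots 1 called probe set: the level (log2 RMA) on each WT array (blue) and KO array (red) under PBS, with a line at the group mean and a triangle for KO PBS 4. The groups are apart in every panel, with KO below WT in 5 and, for Cenpf, 8.34 to 9.10 in KO against 6.37 and 6.62 in WT.

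These calls depended in part on single arrays. Without WT PBS 3, Cenpf stood at 2.15 (adjusted p = 0.0677), Zfp931 at −1.81 (0.0879) and Spry4 at −1.41 (0.0593); without WT PBS 5 they stood at 2.39 (0.0716), −1.92 (0.101) and −1.34 (0.101); and without KO PBS 2 Spry4 stood at −1.34 (0.0576). The 3 probe sets with several genes kept their calls with any single array removed. The count of calls was 14 without WT PBS 3, 4 without WT PBS 5 and 22 without WT AngII 2, an array that enters only through the estimate of the spread. With only the 5 PBS arrays in the fit it was 4, Spry4 (adjusted p = 0.0502) and Zfp931 (0.0707) having missed the threshold.

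**Figure D2:**
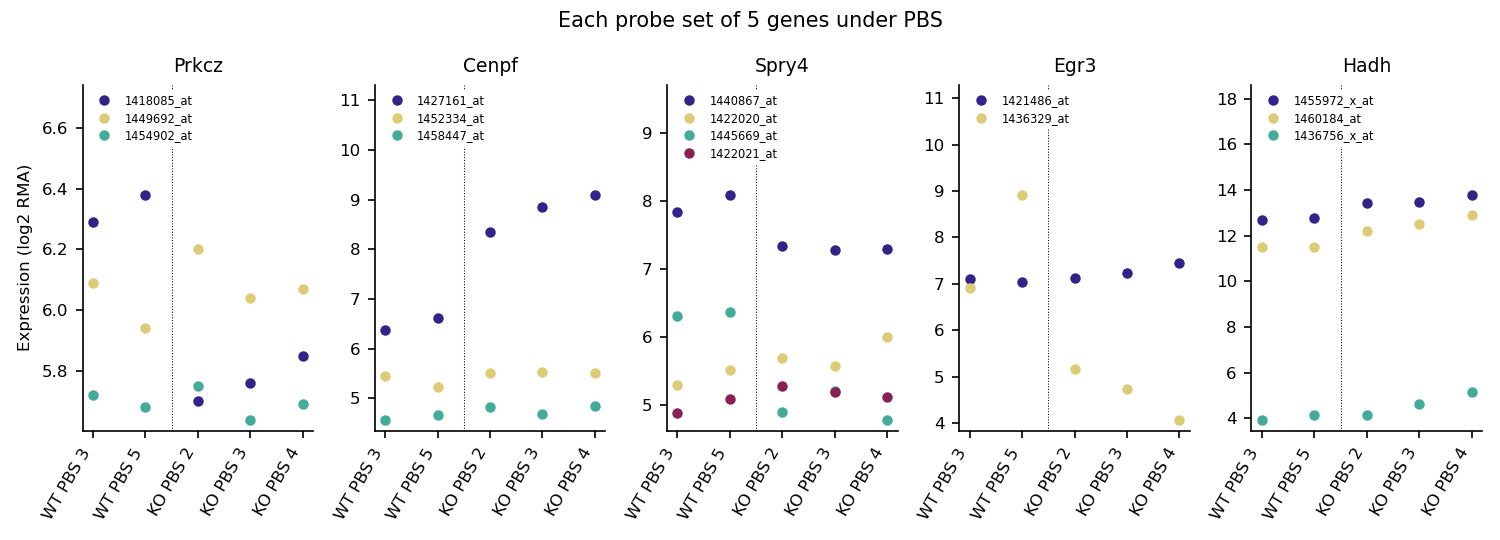
The level (log2 RMA) of every probe set of Prkcz, Cenpf, Spry4, Egr3 and Hadh on the 5 PBS arrays, 1 colour per probe set; the dotted line separates WT from KO and the vertical scales differ. For Cenpf all 3 probe sets are higher in KO without overlap, 1 by 2.27 and the others by 0.18 and 0.17. For Egr3 the 2 probe sets lie on opposite sides.

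Beyond the calls, the genes with wide differences were mostly lower in KO. With 1 probe set for each of 18193 genes, 2 genes were called (0.011%, Cenpf and Zfp931, also without KO PBS 4). For Zfp931 the call rests on a probe set that may also match related genes, as given above. By at least 1 log2 with no overlap between the groups, 44 genes (0.242%) were lower in KO and 3 (0.0165%) were higher. Without regard to size the groups were apart in about equal shares of genes, 2194 with KO lower (12.1%) and 2285 with KO higher (12.6%), and the median difference of all genes was 0.0. Of the 44 genes, 29 were still at least 1 log2 lower without KO PBS 4, as were 36 without WT PBS 3 and 31 without WT PBS 5. Recounted on the remaining arrays, the rule held 30 lower genes without KO PBS 4, 75 without WT PBS 3, 68 without WT PBS 5, 67 without KO PBS 2 and 58 without KO PBS 3. KO PBS 4 was the lowest KO array for 36 of the 44, and WT PBS 5 the higher WT array for 30. Over all 18193 genes these counts were 6480 and 9726. Of the 44, 18 belong to a list described here, 9 of them immediate early transcription factors. Under AngII 41 of the 44 lay below 0 as well, 8 by at least 1 log2.

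**Figure D3:**
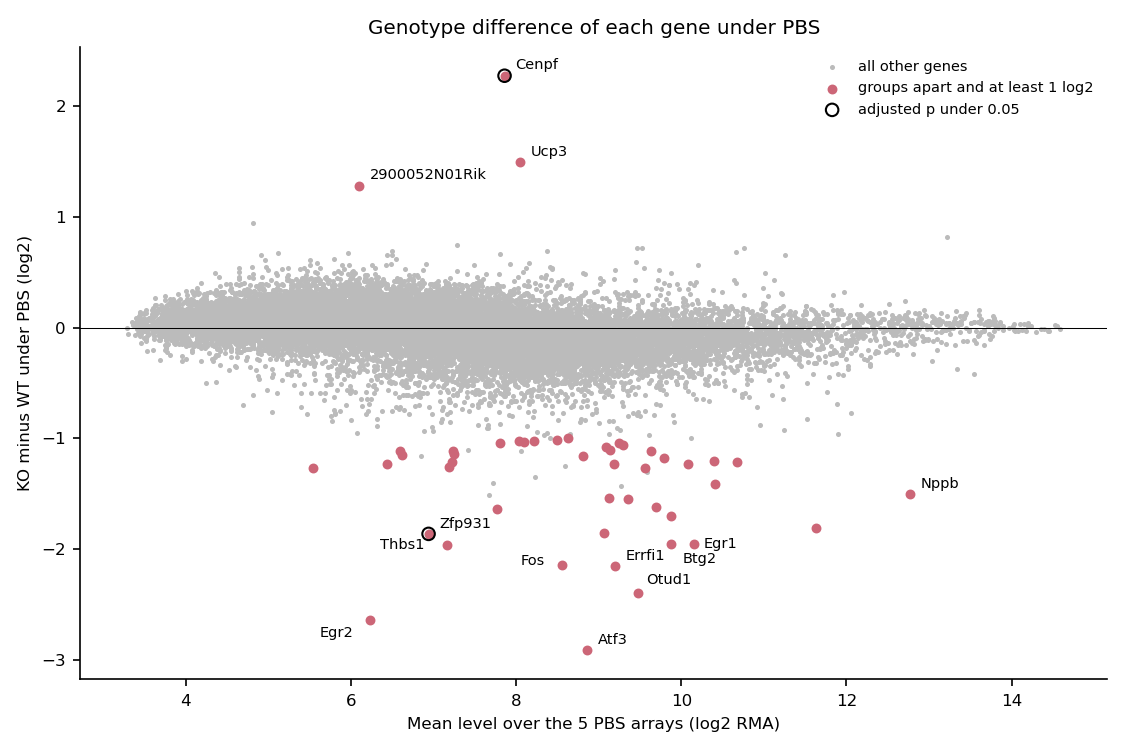
Each point is a gene: its mean level over the 5 PBS arrays (x axis, log2 RMA) against KO minus WT under PBS (y axis, log2). Genes with no overlap and a difference of at least 1 are red, and circles mark an adjusted p under 0.05; the red points are 44 below and 3 above, with Cenpf at 2.27 and Atf3 at −2.91 as the outermost.

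The immediate early transcription factors lay lower in KO as a group, although 0 of the 28 were called. Of 28 measured genes 25 lay below 0, with a median of −0.75 against 0.0 over all genes; without KO PBS 4 the median was −0.57. In 17 all KO arrays were below both WT arrays, where 12.1% of all genes were, and 1 was apart the other way. An unadjusted p under 0.05 with KO lower was reached by 21 of the 28, against 3.44% of all genes; this count was 16 without KO PBS 4, where it was 2.23% of all genes, 14 without WT PBS 3 and 14 without WT PBS 5. With KO higher the count was 0, against 2.31% of all genes, and 1.91% without KO PBS 4. The list was drawn up with earlier results of these arrays known, so its direction is a description and not independent evidence.

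The EGR factors, zinc-finger activators downstream of ERK signalling, held some of the widest differences. Egr2 read 7.27 and 8.35 on the WT arrays and 5.50, 5.32 and 4.69 on the KO arrays (−2.64 ± 0.49, limma's adjusted p = 0.316). Egr1, 3.86-fold lower, read 11.10 and 11.54 against 9.09, 10.42 and 8.60. The KO arrays of both genes were below both WT arrays, and KO PBS 4 was the lowest. Egr3 gave opposite readings on its probe sets: the brightest lay at 7.10 and 7.04 against 7.12, 7.23 and 7.46, and the other at 6.92 and 8.92 against 5.17, 4.74 and 4.08 (−3.26 ± 0.58, adjusted p = 0.267).

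Among the AP-1 factors, the dimeric activators built from Fos, Jun and ATF proteins, the WT arrays themselves differed widely. Atf3, a stress-induced member, read 9.32 and 11.90 in WT and 8.77, 7.28 and 7.04 in KO (−2.91 ± 0.64, limma's adjusted p = 0.405). Fos read 8.91 and 10.78 against 8.46, 8.03 and 6.64 (−2.14 ± 0.61, adjusted p = 0.624). For both, WT PBS 5 stood far above WT PBS 3, which lay within 1 log2 of KO PBS 2. Fosl2 read 9.53 and 9.49 against 9.15, 8.41 and 7.50 on its brightest probe set, with the WT arrays close together and KO PBS 4 the lowest (−1.16, and −0.73 without KO PBS 4). Its other probe set overlapped between the groups, at 7.20 and 7.58 against 7.46, 7.16 and 7.10 (−0.14 ± 0.17). Jun overlapped between the groups, at 9.70 and 10.58 against 9.95, 9.46 and 8.63, and Junb was apart by a narrow gap, at 8.61 and 7.76 against 7.53, 7.64 and 6.75. Fosb, at 4.34 to 4.83 near the bottom of the scale, differed by −0.12 ± 0.13.

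The orphan nuclear receptors Nr4a1 and Nr4a3, which bind DNA without a known hormone, had the same order of arrays as Atf3 and Fos. Nr4a1 read 10.40 and 10.92 against 9.85, 9.14 and 8.13, and Nr4a3 8.43 and 9.07 against 8.02, 6.75 and 6.56 on its brightest probe set. The other 2 probe sets of Nr4a3 had the opposite sign, at 0.23 ± 0.19 with overlap and 0.21 ± 0.10 with KO higher. Their relative Nr4a2 read 7.46 and 7.44 against 7.30, 7.52 and 7.50, a difference of −0.01 ± 0.15. Btg2, an antiproliferative cofactor of mRNA deadenylation, read 10.60 and 11.48 against 9.76, 9.29 and 8.22 (−1.95 ± 0.42, limma's adjusted p = 0.393). Klf6, a Kruppel-like activator, read 9.62 and 9.98 against 8.86, 8.92 and 8.31 (−1.10 ± 0.23). Ifrd1, a transcriptional coregulator of muscle, had the smallest unadjusted p of the list. It read 9.71 and 9.69 in WT and 8.92, 8.77 and 8.54 in KO, with the WT arrays nearly equal (−0.96 ± 0.15, or 1.94-fold, adjusted p = 0.140). Under AngII Ifrd1 differed by 0.10 ± 0.15, and its interaction had an unadjusted p of 3.11e-04 and an adjusted p of 1.

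**Figure D4:**
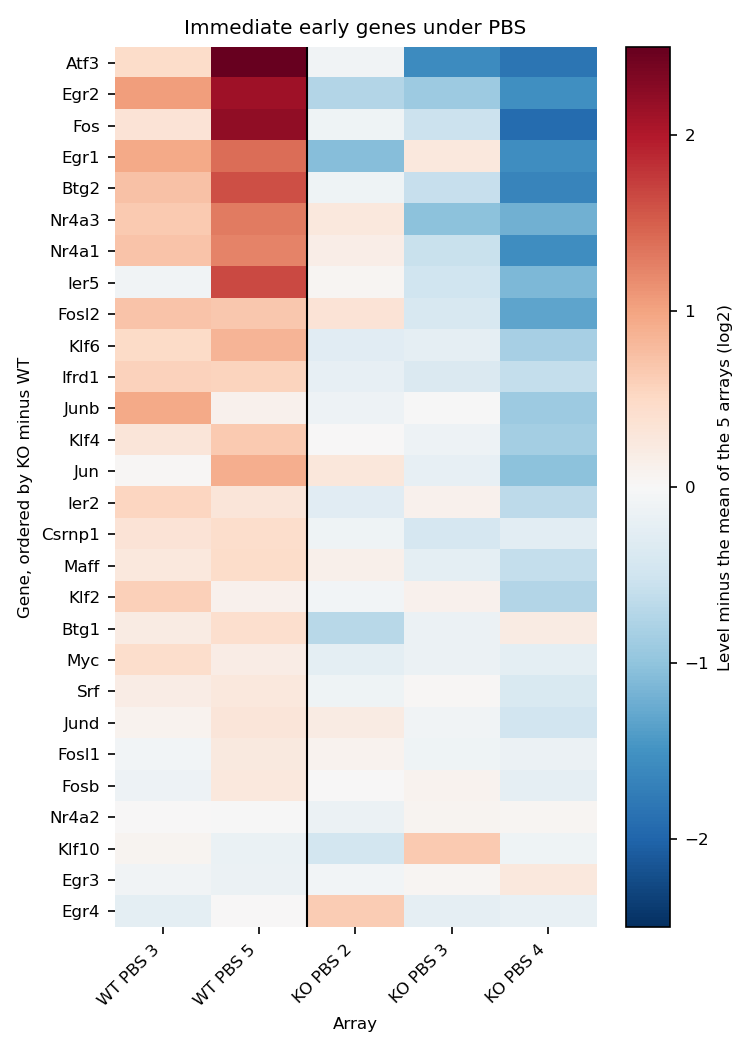
Rows are the 28 immediate early genes, ordered by KO minus WT; columns are the 5 PBS arrays, and colour is the level minus the gene's mean over the 5 arrays (log2). WT PBS 5 carries the strongest red and KO PBS 4 the strongest blue; Atf3, at 11.90 on WT PBS 5 and 7.04 on KO PBS 4, is the widest.

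Averaged over the 28 genes, the level was 8.77 and 9.15 on the WT PBS arrays and 8.31, 8.16 and 7.64 on the KO PBS arrays. The 5 AngII arrays of either genotype lay between 7.89 and 8.36, within or close to the range of the KO PBS arrays, so that the WT PBS arrays were the 2 highest of all 10. The median difference of the list under AngII was −0.23. In limma's interaction test 0 of the 28 were called and 9 had an unadjusted p under 0.05, against 257 of all 18193 genes. The 18S signal was highest on the same 2 of the 10 arrays and lowest of the PBS arrays on KO PBS 4, as given above, and the actin 3' minus 5' signal was highest on WT PBS 5. The part of these signals in the result was not tested.

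Genes that damp receptor kinase and MAP kinase signalling followed with smaller differences. Of 20 measured, 17 lay below 0 with a median of −0.27 (−0.19 without KO PBS 4), 7 were apart with KO lower and 1 with KO higher, where 12.1% and 12.6% of all genes were. An unadjusted p under 0.05 was reached by 4, all with KO lower, against 3.44% of all genes, and by 2 without KO PBS 4. Errfi1, an inhibitor that binds the EGF receptor kinase, led them at 10.09 and 10.90 in WT and 8.54, 8.72 and 7.77 in KO. Its groups were more than 1 log2 apart (−2.15 ± 0.34, or 4.45-fold, limma's adjusted p = 0.168), and a second probe set read 8.68 and 8.76 against 7.93, 7.78 and 7.79. Under AngII Errfi1 differed by −0.23 ± 0.34, with an unadjusted interaction p of 0.00192. Dusp1, a phosphatase of p38, JNK and ERK, overlapped between the groups at 11.34 and 11.89 against 11.10, 11.39 and 10.42. Nab2, a corepressor of EGR factors, read 7.68 and 7.63 against 7.11, 7.23 and 7.01 (−0.54 ± 0.23). Dusp7 went the other way, at 8.95 and 8.62 against 9.04, 9.29 and 9.02. Hbegf, a ligand of the EGF receptor released by shedding, is in no list and was met by size: 10.14 and 10.43 against 9.20, 8.77 and 8.24 (−1.55 ± 0.32), with −1.80 ± 0.29 on its other probe set.

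Feedback at the level of mRNA decay and cytokine signalling had the same sign. Of 17 measured genes 15 lay below 0 with a median of −0.24 (−0.16 without KO PBS 4, −0.12 without WT PBS 3). An unadjusted p under 0.05 with KO lower was reached by 6, and by 3 without KO PBS 4, against 3.44% and 2.23% of all genes. Cebpd, a transcription factor of the acute phase response, read 10.80 and 10.83 in WT and 9.77, 9.71 and 9.29 in KO (−1.23 ± 0.28, limma's adjusted p = 0.437). Zfp36, which binds AU-rich mRNA and speeds its decay, read 9.37 and 10.39 against 9.14, 9.14 and 8.23. Nfkbia, the inhibitor of NF-kB, read 11.74 and 11.95 against 11.34, 11.56 and 11.36. In each of the 3 the groups did not overlap. Socs3, an inhibitor of JAK signalling, did overlap: 9.59 on WT PBS 3 but 7.86 on WT PBS 5, against 8.57, 7.11 and 7.16.

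Transcription of many immediate early genes is started through 2 short motifs, the CArG box, bound by serum response factor (SRF), and the cAMP response element (CRE), TGACGTCA, bound by CREB and ATF proteins. Both motifs read alike on either strand and do not overlap each other. The search covered the 300 bases around each annotated start in RefSeq (GRCm38.p6), 250 before it and 50 after. Of the 14452 genes on the array with such a sequence, 1.58% had a CArG box and 2.92% a CRE; of all 27025 genes with one, 1.81% and 2.03% did. Of the 39 immediate early and feedback genes with a sequence, 3 had a CArG box (7.69%; Dusp5, Egr2 and Srf) and 5 a CRE (12.8%; Btg2, Dusp1, Dusp8, Errfi1 and Maff). Of 35 of the 44 genes lower by at least 1 log2, 3 had a CArG box (8.57%) and 4 a CRE (11.4%). The 250 bases before the start are shown for Egr2, Zfp36, Btg2 and Errfi1, a pair with each motif from the genes described above, 5′ to 3′ with the motif in capitals. Egr2 lies at chr10:67537316-67537565 on the plus strand (1 of its 5 annotated starts, with the motif 72 bases before it), and Zfp36 at chr7:28379229-28379478 on the minus strand (58 bases). Btg2 lies at chr1:134079156-134079405 on the minus strand (166 bases) and Errfi1 at chr4:150854820-150855069 on the plus strand (1 of 2 starts, 51 bases).
Egr2: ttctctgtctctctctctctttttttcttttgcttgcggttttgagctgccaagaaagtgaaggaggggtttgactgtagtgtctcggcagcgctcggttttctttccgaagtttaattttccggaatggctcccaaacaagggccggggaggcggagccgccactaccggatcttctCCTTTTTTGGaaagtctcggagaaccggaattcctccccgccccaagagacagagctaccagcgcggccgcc
Zfp36: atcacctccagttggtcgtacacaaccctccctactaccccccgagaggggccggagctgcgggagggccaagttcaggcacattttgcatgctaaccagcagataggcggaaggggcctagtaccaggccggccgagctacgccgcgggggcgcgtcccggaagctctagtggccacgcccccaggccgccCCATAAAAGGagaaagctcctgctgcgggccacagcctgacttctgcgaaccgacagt
Btg2: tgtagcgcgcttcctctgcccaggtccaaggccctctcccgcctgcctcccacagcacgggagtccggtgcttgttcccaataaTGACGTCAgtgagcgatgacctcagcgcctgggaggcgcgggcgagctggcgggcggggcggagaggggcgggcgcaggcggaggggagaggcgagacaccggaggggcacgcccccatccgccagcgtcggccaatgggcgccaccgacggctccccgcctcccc
Errfi1: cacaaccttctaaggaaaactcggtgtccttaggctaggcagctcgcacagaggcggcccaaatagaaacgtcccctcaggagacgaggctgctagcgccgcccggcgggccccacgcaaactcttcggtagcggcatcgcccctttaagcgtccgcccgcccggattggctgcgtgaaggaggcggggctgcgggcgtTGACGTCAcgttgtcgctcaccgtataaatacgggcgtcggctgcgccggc
A match describes letters in these windows; binding was not measured, and most genes that differed by as much had neither motif in them.

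Targets of SRF and of the mechanically regulated coactivator YAP, which answer to actin tension, were also mostly lower in KO. Of 16 measured 14 lay below 0 with a median of −0.31 (−0.32 without KO PBS 4), 8 were apart with KO lower and 1 with KO higher (12.1% and 12.6% of all genes), and 6 had an unadjusted p under 0.05 with KO lower and 1 with KO higher (3.44% and 2.31% of all genes). Ccn2, a matricellular protein also known as connective tissue growth factor, read 12.28 and 13.16 in WT and 11.19, 10.98 and 10.55 in KO (−1.81 ± 0.41, limma's adjusted p = 0.437). Its relative Ccn1 read 9.73 and 12.05 against 9.07, 9.46 and 9.05, with WT PBS 5 far above all others. Thbs1, thrombospondin-1, read 8.41 and 8.26 against 6.90, 6.31 and 5.90 on its brightest probe set, the WT arrays being close together and more than 1 log2 above KO (−1.96 ± 0.58). On its other probe set the WT arrays lay further apart and the gap was narrower, at 7.21 and 6.28 against 5.77, 5.34 and 5.78 (−1.12 ± 0.56). Acta2, the actin of smooth muscle and activated fibroblasts, read 12.56 and 12.48 against 11.90, 11.73 and 11.60 (−0.77 ± 0.15, adjusted p = 0.344). Amotl2, which holds YAP in the cytoplasm, lay higher in KO, at 9.27 and 9.23 against 9.62, 9.67 and 9.42. Under AngII the list's median was −0.23, and Ccn2 and Ccn1 differed by −1.30 and −1.16. There 1 WT array stood apart: the list averaged 10.31 on WT AngII 2, against 9.41 and 9.56 on the other WT AngII arrays and 9.41 and 9.37 on the KO AngII arrays. Smooth muscle and pericyte markers lay on the same side: 9 of 10 lay below 0 with a median of −0.27 (−0.34 without KO PBS 4), 6 were apart with KO lower (12.1% of all genes), and their mean level was 9.58 and 9.77 in WT against 9.40, 9.23 and 9.39 in KO; without WT PBS 3 the median was −0.50 and without WT PBS 5 −0.18. Their part in the result was not tested, and in whole hearts fewer cells of a type and less RNA per cell cannot be told apart.

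Of the genes that mark the stressed ventricle, a natriuretic peptide gene and several stretch-induced genes lay lower in KO. In the hypertrophic marker list 15 of 18 measured genes lay below 0 with a median of −0.26 (−0.20 without KO PBS 4), and 6 had an unadjusted p under 0.05, all with KO lower, against 3.44% of all genes. Nppb, which encodes the natriuretic peptide BNP, read 13.84 and 13.49 in WT and 13.09, 12.07 and 11.34 in KO (−1.50 ± 0.36, limma's adjusted p = 0.466; −1.09 without KO PBS 4). Ankrd1, a stretch-induced partner of titin, read 13.91 and 13.68 against 13.39, 13.39 and 13.36, on its brightest probe set (−0.42 ± 0.08, adjusted p = 0.344). Its other probe set, nearly as bright, overlapped at 13.91 and 13.00 against 12.99, 12.94 and 13.28 (−0.39 ± 0.23). Rcan1, a feedback inhibitor of calcineurin, read 11.84 and 10.67 against 10.41, 9.76 and 9.38, and Xirp1, an actin-binding protein of the intercalated disc, 11.32 and 11.48 against 10.79, 10.16 and 9.62. On these probe sets neither overlapped, but a second one for Rcan1 did, at 9.84 and 6.99 against 7.49, 7.26 and 8.10, with WT PBS 5 the lowest of the 5. Under AngII the differences were −0.19 ± 0.36 for Nppb, 0.01 for Ankrd1 and −0.01 for Xirp1, and the list's median was −0.02. In limma's interaction test 0 members were called and 4 of the 18 had an unadjusted p under 0.05, against 257 of all 18193 genes. Markers of the cardiomyocyte, such as Myh6 and Tnnt2, averaged 14.02 to 14.09 on the 5 arrays, with a median difference of −0.03 over 10 genes (−0.02 without KO PBS 4), so the defining markers of heart muscle were present on each.

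The protein kinase C genes lay slightly lower. All 10 measured were below 0 with a median of −0.18 (−0.17 without KO PBS 4). In 4 the groups were apart with KO lower (12.1% of all genes), and only Prkcz had an unadjusted p under 0.05, where 3.44% of all genes had one with KO lower. Prkci, the other atypical isoform, read 8.21 and 8.30 in WT and 7.91, 8.05 and 7.42 in KO (−0.46 ± 0.24, limma's adjusted p = 0.813; −0.27 without KO PBS 4). Without KO PBS 3 the median was −0.29. The partners of atypical PKC and the proposed route from Gq to ERK5 showed no common direction: 10 of 19 lay below 0 with a median of −0.01 (0.02 without KO PBS 4), 3 were apart with KO lower and 4 with KO higher (12.1% and 12.6% of all genes), and 1 had an unadjusted p under 0.05. This was Wwc1, which encodes the polarity protein KIBRA and read 5.71 and 5.81 against 6.48, 6.22 and 6.05 (0.49 ± 0.14, adjusted p = 0.631). Pard6a, a subunit of the Par polarity complex, read 6.82 and 7.13 against 7.19, 7.30 and 7.20. Mapk7 (ERK5), Map2k5 and Sqstm1 (p62) overlapped between the groups.

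Ucp3, from the list of the mitochondrial use of fatty acids, was 1 of the 3 genes at least 1 log2 higher in KO. Of the 27 genes measured in that list 22 lay above 0 with a median of 0.08 (0.11 without KO PBS 4), 5 were apart with KO higher and 0 with KO lower, and 2 had an unadjusted p under 0.05 with KO higher. Of all genes 12.6% were apart with KO higher and 2.31% had such a p. The share below 0 was 18.5% in the list and 50.6% over all genes, and the list was not tested as a set. Ucp3, a mitochondrial carrier of muscle that is induced by fatty acids, read 7.45 and 6.85 in WT and 8.20, 9.05 and 8.69 in KO (1.49 ± 0.31, or 2.82-fold, limma's adjusted p = 0.389). Hadh, the short-chain hydroxyacyl-CoA dehydrogenase of beta-oxidation, read 12.68 and 12.76 against 13.41, 13.45 and 13.79 (0.82 ± 0.17, adjusted p = 0.389). Its other probe sets had the same sign, at 1.02 ± 0.21 and 0.61 ± 0.25, and under AngII the difference was 0.92. The uncharacterised transcript 2900052N01Rik, the remaining gene at least 1 log2 higher beside Ucp3 and Cenpf, read 5.46 and 5.20 against 6.26, 6.56 and 7.02. Its other probe sets differed by 0.20 ± 0.17 with overlap and by 0.33 ± 0.13 without overlap. For Ucp3, Hadh and 2900052N01Rik the groups did not overlap on the probe sets printed, and without KO PBS 4 the differences were 1.47, 0.71 and 1.08. Oxidative phosphorylation (36 genes, median 0.03, and 0.02 without KO PBS 4) and glycolysis (17 genes, median 0.0, and 0.04) lay near the median of all genes.

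**Figure D5:**
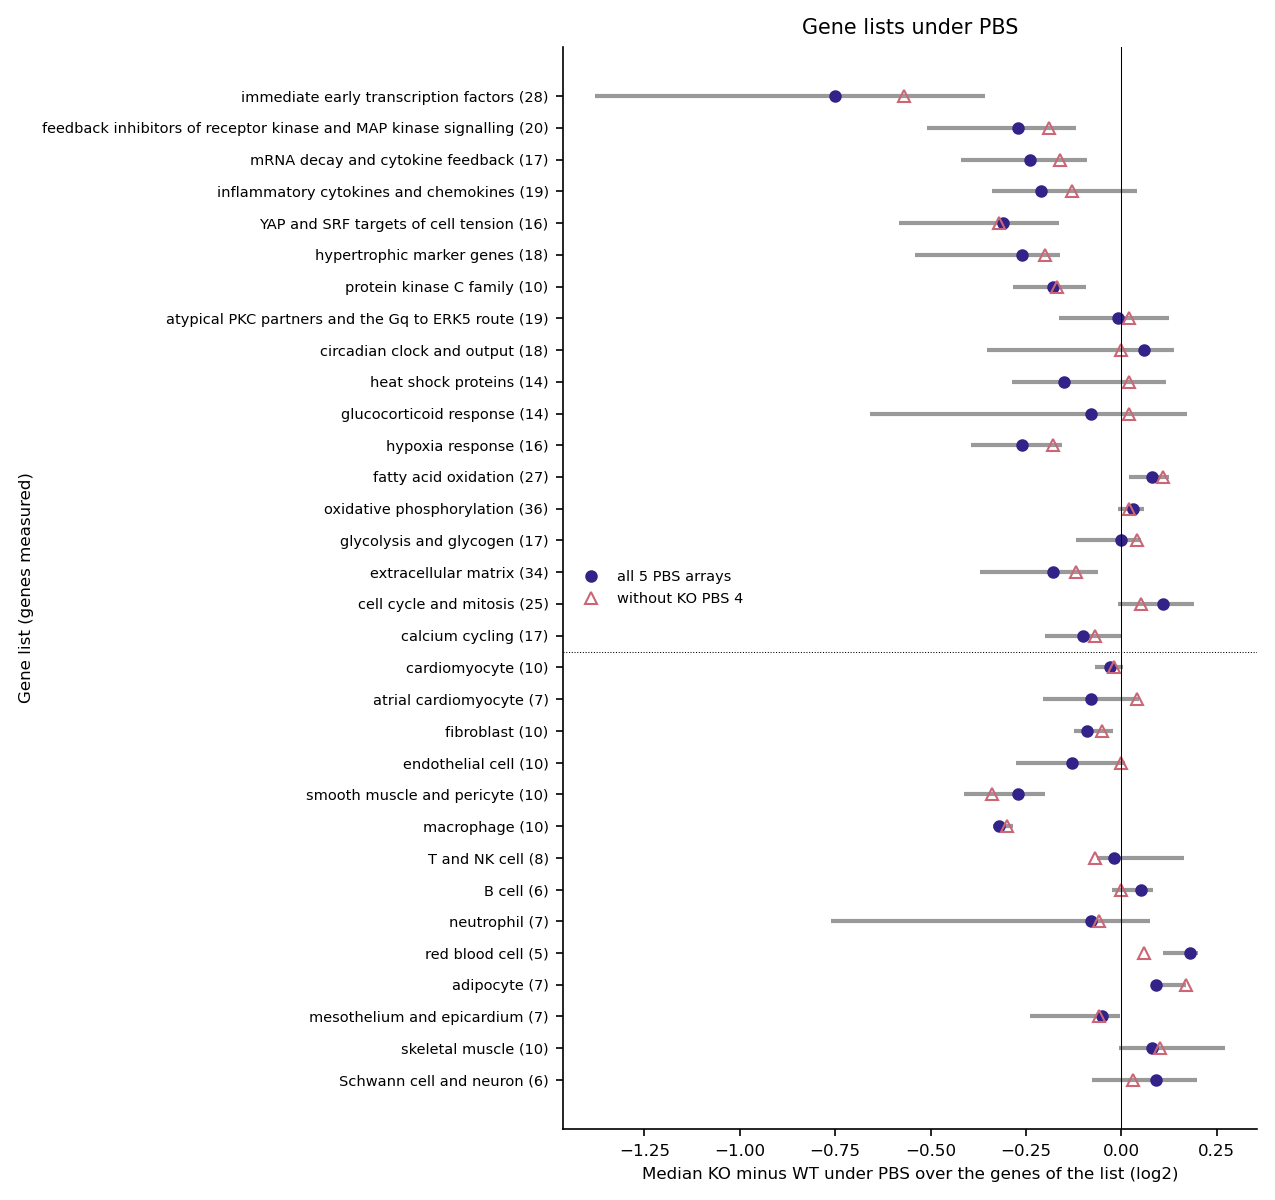
For each gene list (number of genes measured in brackets), the median KO minus WT under PBS (log2) with all 5 arrays (filled circle) and without KO PBS 4 (open triangle); grey bars span the middle quartiles of the genes and the dotted line divides pathways from cell types. Immediate early genes lie farthest from 0, at −0.75 and −0.57, and most cell type lists lie within 0.20 of 0.

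Several genes outside the lists were lower in KO under PBS and under AngII, where both KO arrays had the low control signal of KO PBS 4. Ppm1h, a protein phosphatase, read 8.09 and 7.81 in WT and 6.95, 6.62 and 6.64 in KO (−1.21 ± 0.17, limma's adjusted p = 0.0645; −0.92 under AngII). Gde1, a glycerophosphodiester phosphodiesterase, read 9.56 and 9.91 against 8.73, 8.61 and 8.64 (−1.08 ± 0.16, adjusted p = 0.138; −1.20 under AngII). Sirt1, an NAD-dependent deacetylase, read 7.72 and 8.15 against 6.48, 7.03 and 6.85 (−1.14 ± 0.22; −1.04 under AngII). Thrap3, a splicing cofactor, read 8.96 and 9.24 against 7.94, 7.94 and 8.38 (−1.01 ± 0.18; −1.36 under AngII), while its other probe sets differed by −0.42 and −0.30. On the probe sets printed for these 4 genes all KO arrays lay below WT, and KO PBS 4 was the lowest on none. On the second Ppm1h probe set, at 7.58 and 7.41 against 6.91, 7.13 and 6.51 (−0.64 ± 0.21), KO PBS 4 was the lowest. KO PBS 4 was also the lowest on the Thrap3 probe set that differed by −0.42, and on the remaining Thrap3 probe set the groups overlapped. Other genes stood apart under PBS with a difference of opposite sign under AngII. Mgst1, a microsomal glutathione transferase, read 11.83 and 12.19 against 10.99, 11.19 and 11.40 (−0.82 ± 0.16) but differed by 0.40 ± 0.16 under AngII, with an unadjusted interaction p of 1.70e-04. Adamts1, a secreted protease of the matrix, read 9.80 and 10.30 against 9.06, 8.67 and 7.81 (−1.54 ± 0.30) and differed by 0.38 ± 0.30 under AngII, with limma's unadjusted interaction p at 7.15e-04. Both have an adjusted interaction p of 1. Otud1, a deubiquitinase, and Abra, a cofactor of SRF in striated muscle, resembled Atf3 in their arrays: Otud1 read 10.15 and 11.65 against 9.34, 8.39 and 7.80, and Abra 9.20 and 11.13 against 9.06, 8.36 and 7.53.

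Markers of macrophages lay slightly lower in KO. All 10 macrophage markers lay below 0 with a median of −0.32 (−0.30 without KO PBS 4, −0.22 without WT PBS 5); 6 were apart with KO lower (12.1% of all genes), but none had an unadjusted p under 0.05. Their mean level was 8.55 and 8.78 in WT against 8.34, 8.43 and 8.25 in KO. Mrc1, the mannose receptor of resident macrophages, read 8.83 and 8.73 against 8.43, 8.41 and 8.53 (−0.32 ± 0.18, limma's adjusted p = 0.814). T cell, B cell and fibroblast markers had medians of −0.02, 0.05 and −0.09 (−0.07, 0.0 and −0.05 without KO PBS 4); that of fibroblasts was 0.14 without WT PBS 5 and −0.24 without WT PBS 3. Extracellular matrix genes had a median of −0.18, with 29 of 34 below 0 and Thbs1 as the single member with an unadjusted p under 0.05; without WT PBS 5 the median was −0.03 and without KO PBS 4 −0.12. The neutrophil genes S100a8 and S100a9 followed single arrays, S100a8 reading 8.02 and 10.07 against 8.35, 8.41 and 6.31.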

How the data were processed

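Hearts of KO and WT mice were profiled on 1-colour Affymetrix arrays from 6 µg of total RNA, per the labels' protocols. The authors deposited log2 values; the submitters' processing notes name RMA, a method that corrects background, gives all arrays 1 distribution and combines the probes of each probe set. No version is stated there. It shares information between arrays and compresses differences of dim probe sets. Values were used as deposited.

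The 64 control probe sets were left out of the tests. GEO's platform annotation gave 1 symbol for 34945 of 45037 probe sets, several for 932 and none for 9160; symbols were updated by Entrez identifier with RefSeq's table (GRCm38.p6). A gene is represented by its brightest probe set over all arrays with 1 symbol (18193 genes). The 4 group means of all 10 arrays were fitted by limma 3.58.1 (lmFit, eBayes with trend; R 4.3.3), leaving 6 residual degrees of freedom, or 11.7 at the median once moderated. Tests were two-sided, with Benjamini-Hochberg adjustment over every probe set tested. A block for low spike-in signal was not fitted. For the PBS difference it would give the same values as leaving out KO PBS 4, which does not hold for the AngII difference or the interaction. Samples were grouped by title. Array number limits the precision.

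Prkcz and every called probe set were named. Others were drawn from up to 15 genes on each side by unadjusted p and up to 4 of each described list. Genes apart with a difference of at least 1 log2 were drawn on as well. Not every gene that met these rules is described. Members and the 32 lists were chosen with earlier results of these data known. Further members of described lists, second probe sets, and genes that vary by array were added after their values were seen. Lists are described by counts and medians, with no test. Alternatives were 2 scalings, a level filter, no trend, the PBS arrays alone, the title number as a block, averaging the probe sets of a gene, and each array left out. The fit was tested on simulated arrays.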

Additional observations from a re-analysis of the deposited data

How the results depend on the processing

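The count of 6 calls stood at 7 with equal array medians, 6 after repeated quantile normalisation and 6 without the trend, and all 6 kept their calls under these settings. With the dimmer probe sets removed (mean below the median, 6.19) it was 4, as the others were not tested, and with the PBS arrays alone 4. With the title number as a replicate block it was 3, with 0 higher in KO, 2 of them among the 6, and Cenpf stood at 2.41 (adjusted p = 0.0761), Zfp931 at −1.79 (0.449) and Spry4 at −1.26 (0.449). The PBS groups share only number 3, and same-numbered arrays deviated from their group means with correlations of −0.36 to 0.10, so the numbers were not taken to pair the samples. With single arrays left out the count ranged from 4 to 22, that of the interaction from 0 to 2 (2 without KO AngII 3, 1 without KO AngII 4, 1 without WT PBS 5), and the Prkcz difference from −0.61 to −0.52. Where a group was left with 1 array, its spread was assumed to equal that of the others.

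Of 530 values of 34 named genes and probe sets under the alternatives, 511 kept direction and side of the threshold, 13 lost the call, 6 gained it and 0 changed direction. The gains were Ppm1h, Gde1, Ifrd1, Errfi1 and Egr2 without WT AngII 2, and Rasl11b without WT PBS 3. Of 544 list medians 31 moved beyond the spread; that of immediate early genes lay between −0.87 and −0.57, and that of cytokines turned from −0.21 (−0.13 without KO PBS 4) to 0.10 without WT PBS 3. The cause was not tested. The number of arrays limits what can be called: 3 against 2.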

Other observations

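Some stress genes varied widely between arrays of the same genotype. The inducible heat shock protein Hspa1a read 8.95 and 8.22 on the WT arrays and 9.47, 6.09 and 5.65 on the KO arrays, so that KO PBS 2 lay above both WT arrays and the other KO arrays far below. KO PBS 2 was also the highest of the 5 on all 3 probe sets of its near-identical neighbour Hspa1b, with 10.59 against 7.21 and 6.46 in KO on the brightest. The heat shock list had a median of −0.15 over 14 genes and 0.02 without KO PBS 4. WT PBS 3 alone was high in the chemokine Ccl2 and in Timp1. Ccl2, which attracts monocytes, read 9.06 on it and 6.03 to 6.51 on the other 4 arrays. The protease inhibitor Timp1 read 9.48 against 7.57 to 8.42. WT PBS 5 alone was high in Ccn1, Abra and Ier5, the last at 11.24 against 8.47 to 9.63. The WT arrays thus differed from each other in which early genes were high.

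The circadian list had a median of 0.06 over 18 genes and 0.0 without KO PBS 4. At an unadjusted p under 0.05, 4 were lower and 1 higher in KO (3.44% and 2.31% of all genes), and 1 and 0 without KO PBS 4. Clock, the partner of Bmal1, read 8.48 and 8.19 in WT and 7.58, 7.93 and 7.64 in KO (−0.62 ± 0.17, limma's adjusted p = 0.596), and Per1, a repressor that is also an immediate early gene, 9.06 and 9.36 against 8.76, 8.88 and 7.85. The output factor Tef read 10.11 and 10.26 against 10.37, 10.74 and 10.48. Hypoxia response genes lay lower, 15 of 16 below 0 with a median of −0.26 (−0.18 without KO PBS 4), 7 apart (12.1% of all genes) and 2 with an unadjusted p under 0.05 (3.44%), or 0 without KO PBS 4. Ero1a, an oxidase of protein folding induced by HIF, read 8.63 and 8.75 against 8.38, 8.29 and 8.15. In the glucocorticoid list (14 genes, median −0.08, which was 0.02 without KO PBS 4 and −0.33 without WT PBS 3) Zbtb16 read 9.26 on WT PBS 3 and 10.40 to 11.25 on the other 4 arrays.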
